A study of Rattus norvegicus with 11 samples.

Results

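This report describes 53 listed genes for proteins that choose splice sites and for the kinases that act on them, in rat ileum. They were chosen by symbol: 12 serine/arginine-rich (SR) proteins, 4 SR-related proteins, 7 heterogeneous nuclear ribonucleoproteins (hnRNPs) of the A/B and D type, 11 other hnRNPs, 2 cold-inducible RNA-binding proteins, 6 splicing kinases, 7 other splicing regulators and 4 spliceosome components. Of these, 52 were found among the 24481 genes counted, and all 52 passed the filter on low counts in every comparison. Hnrnpa0 was not analysed here. The libraries were made from ileum tissue of SD rats aged 6 to 8 weeks, stated to be male. The SAP group (n = 4) had severe acute pancreatitis, induced by 3% sodium taurocholate injected into the pancreatic duct, and then received vehicle. The JZL184 group (n = 4) had the same injury and received 10 mg/kg of JZL184, an inhibitor of monoacylglycerol lipase, the enzyme that breaks down the endocannabinoid 2-AG. The control group (3 libraries) received vehicle by the treatment protocol, whereas its treatment label reads control plasmid, and no source used here describes a plasmid. Whether the control rats had surgery is not stated. The methods place the grouping of the rats 24 h after surgery, and JZL184 or vehicle was then given by intraperitoneal injection. Tissue was taken 24 h after that treatment, not 24 h after the injury.

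SR proteins bind exonic enhancers through RNA recognition motifs and recruit the spliceosome through their arginine/serine-rich tails, and phosphorylation of these tails by the CLK and SRPK kinases sets where they sit in the nucleus and how active they are. Many hnRNPs coat introns and exonic silencers and oppose them. Several genes of both families carry a poison exon or an alternative 3′ end that lets the protein limit its own messenger RNA. CIRBP and RBM3 are small glycine-rich RNA-binding proteins whose messages rise when cells are mildly cooled, and both are also sensitive to other stresses. In the intestine ESRP1 and ESRP2 maintain epithelial splice forms.

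The libraries held 26341299 to 33847135 reads on genes. Control libraries 1 and 2 differed from each other with a chi-square per gene of 2.81, against 77.5 to 563 for all other pairs within a group, so they were counted as 1 sample (control n = 2). SAP libraries 1 and 2 stood apart from SAP libraries 3 and 4. The chi-square per gene was 85.5 within the first pair, 99.1 within the second and 337 to 563 between them. Of the 52 members, 19 and 18 lay above 2 times the control mean in the first pair and 0 and 1 in the second. In JZL184 libraries 1 to 4 this count was 11, 4, 10 and 8. The share of all genes above this level was not counted. After TMM scaling, the members' median log2 deviation from the mean over groups was 0.40, 0.09, -0.01 and -0.11 in SAP libraries 1 to 4. SAP library 2 held 20 reads on Y-linked genes and the other libraries 1222 to 4665, which goes against the stated sex. Although the cell type label names intestinal epithelial cells, smooth muscle markers were present in every library (sum of 5 genes 343 to 1724 FPKM, read fragments scaled to transcript length and library size). The 8 ileal epithelial markers summed to 37851 to 43090 FPKM in control, 11213 to 26003 in SAP and 7438 to 17562 in JZL184, and Fabp6 and the keratins Krt8, Krt19 and Krt20 made up most of this sum. The adhesion gene Cdh1 went the other way, from 105 to 118 FPKM in control to 132 to 166 in SAP and 151 to 194 in JZL184, and Epcam was at 3095 to 3814, 2220 to 3059 and 2802 to 3249 FPKM. In the same order of groups, Vil1 was at 261 to 496, 263 to 372 and 64.0 to 193 FPKM. Slc10a2 was at 50.9 to 82.0, 49.6 to 136 and 4.24 to 104 FPKM. In such bulk tissue, fewer cells of a type and less RNA per cell cannot be told apart. Prss1, Cpa1 and Ctrb1, markers of the exocrine pancreas, were at 0.17 FPKM or less everywhere.

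By FPKM, a scale that corrects for transcript length, the most abundant members were Hnrnpab (mean 630 over the samples), Hnrnpa2b1 (438), Rbm3 (415) and Hnrnpa1 (357), and the least abundant were Mbnl2 (3.08) and Tra2a (5.09). The place of Rbm3 differed between the groups, whose means were 137 FPKM in control, 244 in SAP and 725 in JZL184. In control it lay below Hnrnpab (621), Hnrnpa2b1 (515), Hnrnpc (369), Hnrnpa1 (296), Hnrnpm (273), Hnrnpa3 (240), U2af1 (228), Hnrnpf (165) and Srsf3 (148). In JZL184 it had the highest mean of the 52. All 52 members had a mean of at least 1 FPKM. Hnrnpa3, Hnrnpc, Hnrnpk and Hnrnpm each have 1 or more near-copies in the count table (named as "like" genes or pseudogenes), so their reads may be split and their values are uncertain. Other annotated genes overlapped 19 of the 52 members, among them Enoph1 at Hnrnpdl. The libraries were prepared with a stranded kit, but no source used here says whether the counting used the strand.

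**Figure D1:**
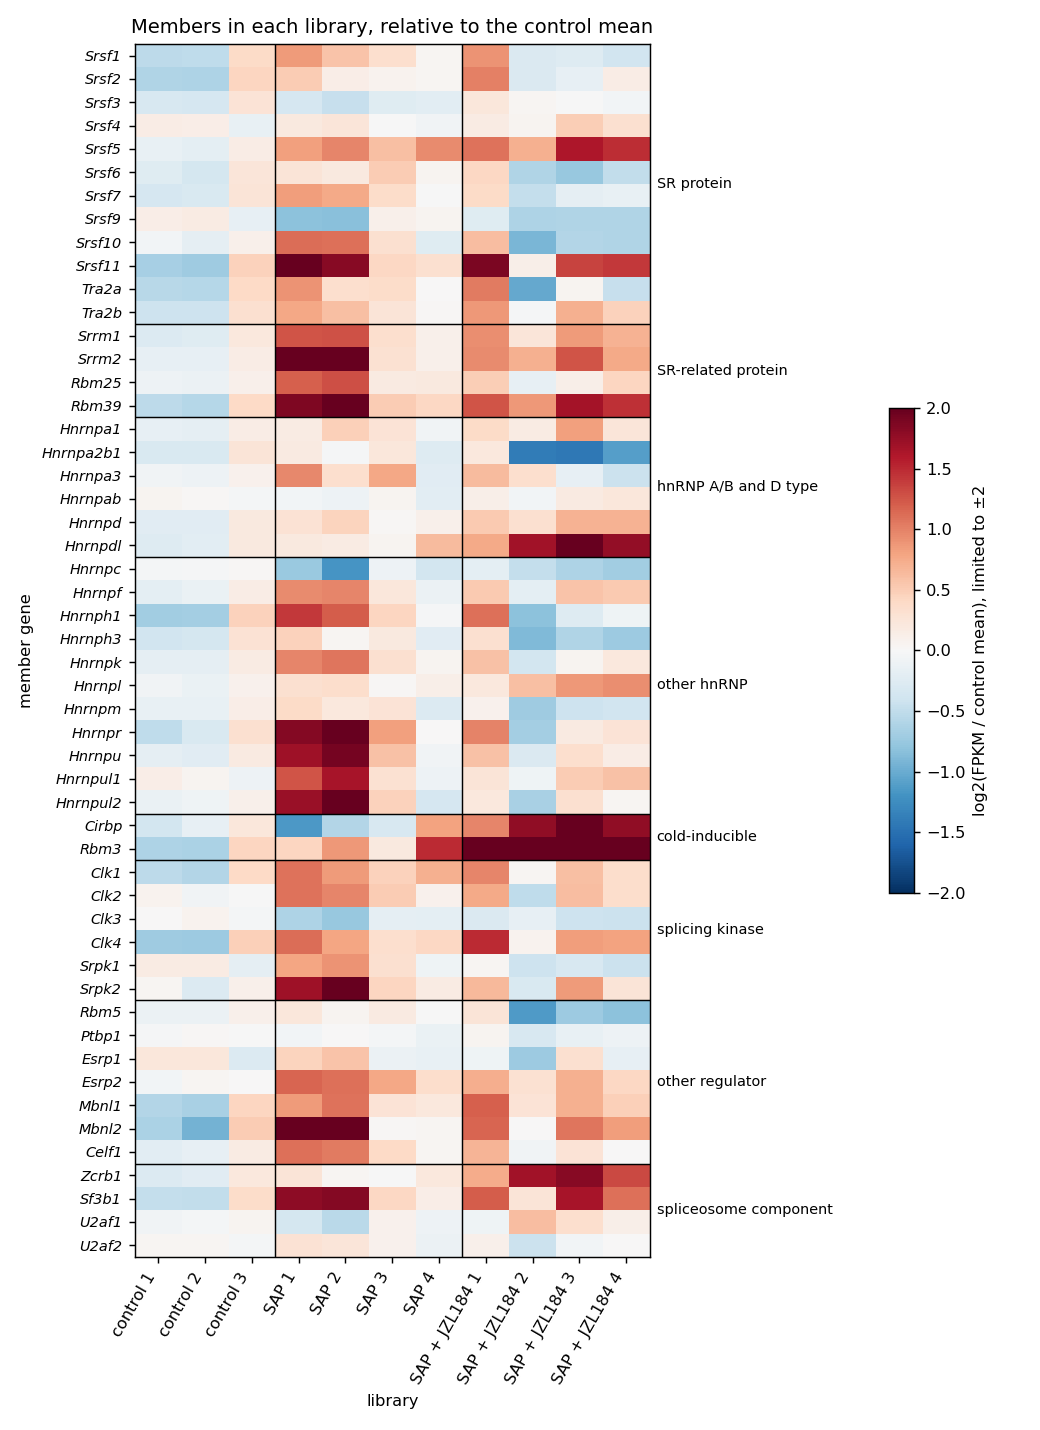
Level of each of the 52 members (rows, by role) in each of the 11 libraries (columns), as the log2 ratio of its FPKM to the control mean, limited to 2 either way. Rbm3 is dark red in every JZL184 library. Cirbp, Hnrnpdl and Zcrb1 are darker red in JZL184 libraries 2 to 4 than in JZL184 library 1. Many SR-related and hnRNP genes are red in SAP libraries 1 and 2 and pale in SAP libraries 3 and 4.

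A set of 4 members stood out in the JZL184 group: the 2 cold-inducible genes Cirbp and Rbm3, the hnRNP gene Hnrnpdl and the minor spliceosome gene Zcrb1. Rbm3 was higher than in control by 5.25-fold and was the 1 member that edgeR called in any comparison. The others were 2.71-fold to 3.22-fold higher than in control and 2.82-fold to 3.84-fold higher than in SAP, and passed the thresholds with DESeq2 but not with edgeR. The promoters of these 4 genes are shown because DESeq2 called each of them higher in JZL184 than in SAP and than in control. Whether the 4 varied together was not tested. Each line gives the 250 bases before the RefSeq start on GRCr8, 5′ to 3′ on the gene's strand, with matches in capitals to TCCCCGCC, an element described in the Cirbp promoter as responding to mild cold, or to GAANNTTC, the core of the heat shock element, on either strand.
Cirbp, chr7:10189476-10189725, minus strand: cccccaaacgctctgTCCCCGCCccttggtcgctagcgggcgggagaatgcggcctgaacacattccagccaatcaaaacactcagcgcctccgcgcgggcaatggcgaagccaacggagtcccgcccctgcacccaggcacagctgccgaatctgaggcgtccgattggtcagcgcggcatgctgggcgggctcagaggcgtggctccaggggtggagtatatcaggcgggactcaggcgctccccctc
Rbm3, chrX:17020655-17020904, plus strand: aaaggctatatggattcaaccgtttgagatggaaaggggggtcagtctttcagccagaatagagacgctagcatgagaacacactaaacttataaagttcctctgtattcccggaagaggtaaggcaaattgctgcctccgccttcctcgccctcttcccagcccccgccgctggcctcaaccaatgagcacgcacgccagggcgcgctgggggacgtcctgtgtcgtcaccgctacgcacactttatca
Hnrnpdl, first of 2 starts, chr14:9861466-9861715, plus strand: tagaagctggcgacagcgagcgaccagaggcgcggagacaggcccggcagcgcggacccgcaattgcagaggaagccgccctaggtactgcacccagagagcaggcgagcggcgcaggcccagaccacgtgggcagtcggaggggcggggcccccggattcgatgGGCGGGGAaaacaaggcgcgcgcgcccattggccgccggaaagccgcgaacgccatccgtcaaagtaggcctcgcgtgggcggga
Zcrb1, chr7:126418013-126418262, minus strand: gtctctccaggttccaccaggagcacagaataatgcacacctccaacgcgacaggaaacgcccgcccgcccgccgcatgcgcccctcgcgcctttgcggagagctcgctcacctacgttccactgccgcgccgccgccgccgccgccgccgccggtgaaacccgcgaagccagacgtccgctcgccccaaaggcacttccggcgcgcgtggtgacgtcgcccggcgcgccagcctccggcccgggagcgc

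TCCCCGCC lay in the Cirbp window in the gene's own direction, 227 bases before the start, and in the first Hnrnpdl window on the opposite strand, 77 bases before the start. The Rbm3 window, the Zcrb1 window and the second Hnrnpdl window held neither element. Over all 33469 windows of this length, 4.22% held TCCCCGCC and 7.23% held GAANNTTC. Of the 53 windows of the 47 members that had one, 7 held the first element (Cirbp, Hnrnpa1, Hnrnpdl, Hnrnpf, Srsf10, Srsf7 and U2af1) and 4 held the second (Hnrnpc, Hnrnpf, Hnrnpl and Srsf5). A match describes the letters only and the 2 elements do not overlap in these windows.

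The comparison of the JZL184 and SAP groups asks how the inhibitor altered expression in the injured ileum. Rbm3 (chromosome X), whose product binds AU-rich RNA and 60S ribosomal subunits, was at 715, 685, 704 and 796 FPKM in JZL184 libraries 1 to 4. In SAP it was at 184, 250, 157 and 386 FPKM, and in control at 89.2, 88.5 and 185 FPKM. All JZL184 libraries lay far above every other library, and SAP library 4 was the highest of the rest. On the log2 scale it was higher than in SAP by 1.70 ± 0.36 (SE, adjusted p = 0.0851 with edgeR's quasi-likelihood test, 0.000536 with DESeq2). The exact two-sided permutation test on FPKM gave p = 0.0286 (n = 4 and 4), the smallest p that this design allows. Rbm3, Cirbp, Hnrnpdl and Zcrb1 were picked from these same libraries as high in JZL184, by the study or by DESeq2. For each of them this smallest p was thus nearly fixed in advance and adds no support. Over all genes, 6.23% were higher in JZL184 than in SAP without overlap.

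Cirbp (chromosome 7), a stress-responsive RNA-binding protein that moves to the cytoplasm and can also be released from cells, was at 23.9, 41.4, 51.0 and 41.0 FPKM in JZL184 libraries 1 to 4. In SAP it was at 5.44, 8.03, 9.66 and 21.1 FPKM, and in control at 9.37, 10.7 and 14.1 FPKM. The groups did not overlap, but the lowest JZL184 library (1) and the highest SAP library (4) lay close together. Relative to SAP its log2 difference was 1.94 ± 0.48 (SE, adjusted p = 0.0951 with edgeR's quasi-likelihood test, 0.0042 with DESeq2) and the exact permutation p was 0.0286 (n = 4 and 4).

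Hnrnpdl (chromosome 14), a paralogue of the AU-rich element binding protein hnRNP D, was at 129, 245, 317 and 260 FPKM in JZL184 libraries 1 to 4. In SAP it was at 87.2, 86.1, 79.6 and 119 FPKM, and in control at 63.9, 66.0 and 88.0 FPKM. JZL184 library 1 again lay nearest to SAP, just above SAP library 4. Its log2 difference from SAP was 1.51 ± 0.35 (SE, adjusted p = 0.0895 with edgeR's quasi-likelihood test, 0.00278 with DESeq2) and the exact permutation p was 0.0286 (n = 4 and 4).

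Zcrb1 (chromosome 7), a zinc knuckle protein of the U11/U12 particle that recognises minor introns, was at 134, 257, 284 and 201 FPKM in JZL184 libraries 1 to 4. In SAP it was at 96.2, 82.4, 79.4 and 92.5 FPKM, and in control at 66.4, 68.1 and 92.9 FPKM. SAP and control overlapped and every JZL184 library lay above both, with library 1 the lowest. From SAP to JZL184 the log2 difference was 1.50 ± 0.30 (SE, adjusted p = 0.0851 with edgeR's quasi-likelihood test, 0.000714 with DESeq2) and the exact permutation p was 0.0286 (n = 4 and 4).

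**Figure D2:**
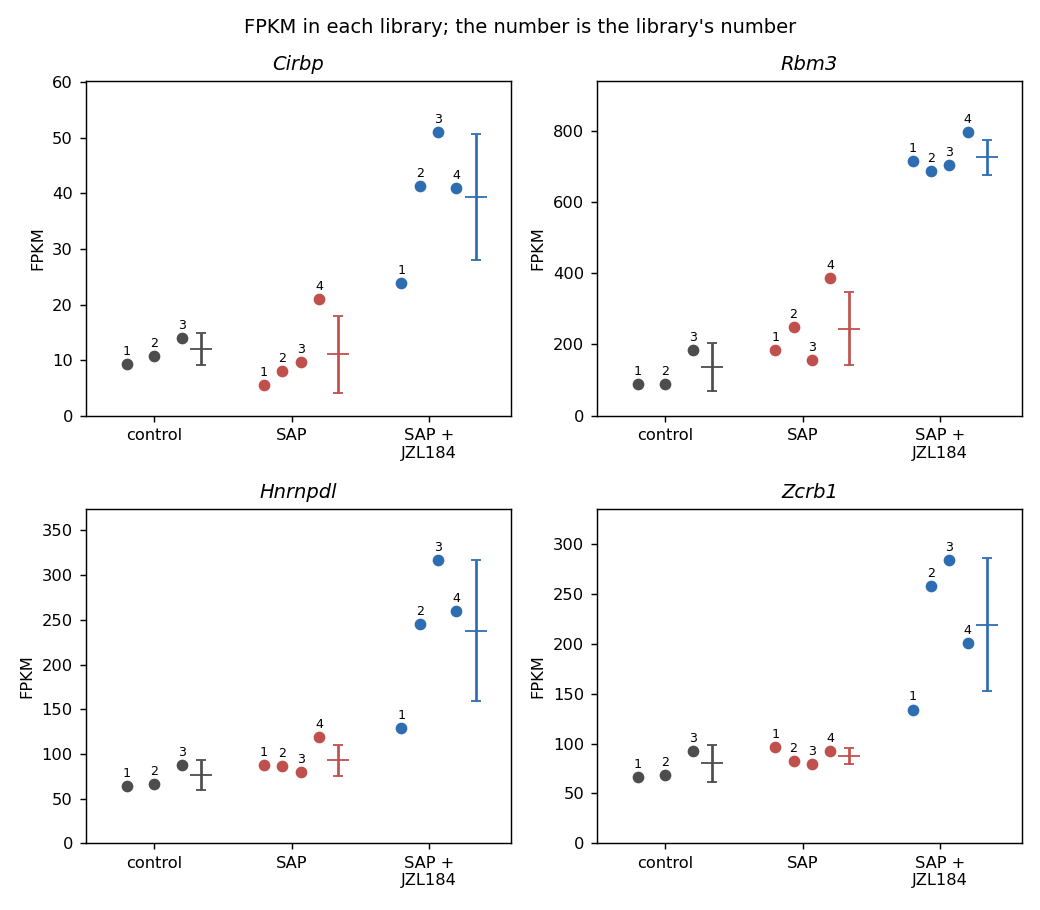
FPKM of Cirbp, Rbm3, Hnrnpdl and Zcrb1 in each library (points, numbered), with the group mean and SD beside them (control libraries 1 and 2 averaged, n = 2, 4 and 4). All JZL184 libraries lie above all SAP and control libraries, and library 1 is the lowest JZL184 library for Cirbp, Hnrnpdl and Zcrb1.

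Leaving out JZL184 library 1 changed the edgeR calls for these genes. Without it, edgeR called 4 members in JZL184 against SAP (Cirbp, Hnrnpdl, Rbm3 and Zcrb1), where it called 0 with it. These were 7.69% of the members, against 4.21% of all genes in the same fit. Limited to SAP libraries 3 and 4, edgeR called 0 of 15883 genes, so the lack of a call for these 4 says nothing particular about them. Their log2 fold changes there were 1.40 for Cirbp, 1.45 for Rbm3, 1.31 for Hnrnpdl and 1.41 for Zcrb1. When 1 library at a time was omitted, the lowest values were 1.70, 1.54, 1.39 and 1.34 in the same order, and all had the same direction.

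Over all genes tested in JZL184 against SAP, edgeR called 0% of 15308 and 0 of the 52 members. At an unadjusted p below 0.05 the share was 21.3% of all genes and 13.5% of the members, that is 7 of 52: Hnrnpdl, Hnrnpl, Cirbp, Rbm3 and Zcrb1 higher, and Hnrnpul2 and Srpk1 lower. DESeq2 called 4 of 52 members (7.69%), all higher, against 6.98% of all genes, a share near the background. The groups did not overlap for 9 members that were higher in JZL184 (17.3%, against 6.23% of all genes): Srsf3, Srsf4, Hnrnpa1, Hnrnpab, Hnrnpd, Hnrnpdl, Cirbp, Rbm3 and Zcrb1. No member was lower without overlap, against 5.59% of all genes. By library size alone, or on the FPKM as deposited, 5 members in place of 9 were higher without overlap, against 5.34% and 4.70% of all genes. Of 4 fibroblast markers, DESeq2 called Col1a1, Col1a2 and Lum lower in JZL184 than in SAP and edgeR called 0. The 4 markers summed to 35.6 to 59.8 FPKM in SAP, 20.7 to 37.1 in JZL184 and 37.6 to 51.3 in control, and their part in the members' values was not tested.

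The median log2 fold change of the members in JZL184 against SAP was -0.10, beside -0.05 for all genes tested, and 23 of 52 were above 0. By role the median was 1.82 for the cold-inducible pair, 0.36 for the hnRNPs of the A/B and D type and 0.36 for the spliceosome components. It was 0.00 for the SR proteins, -0.15 for the kinases, -0.16 for the SR-related proteins, -0.18 for the other regulators and -0.37 for the other hnRNPs. Of the latter, 9 of 11 were below 0, led by Hnrnpul2 (-1.04, standard error 0.44) and Hnrnpr (-0.98, standard error 0.44), while Hnrnpl, a regulator that binds CA repeats, was above it (0.65, standard error 0.24). With edgeR the adjusted p of these 3 genes was 0.211, 0.237 and 0.181. Against SAP libraries 3 and 4 alone, Hnrnpul2 was at -0.05 and Hnrnpr at -0.13.

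Hnrnpa2b1, one of the core hnRNPs, differed widely within the JZL184 group. It was at 599 FPKM in JZL184 library 1 and at 194, 190 and 240 FPKM in libraries 2 to 4. SAP lay between 429 and 602 FPKM and control between 416 and 614 FPKM, so library 1 was at the level of the other groups and libraries 2 to 4 were below all of them. Relative to SAP its log2 difference was -0.66 ± 0.39 (SE, adjusted p = 0.332 with edgeR) and -1.13 without JZL184 library 1. Rbm5, a tumour-suppressor splicing regulator, had the same order, with 87.3 FPKM in library 1 and 33.5, 44.1 and 41.6 FPKM in libraries 2 to 4, against 67.4 to 85.7 FPKM in all SAP and control libraries. These 2 genes were singled out after their values were seen.

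**Figure D3:**
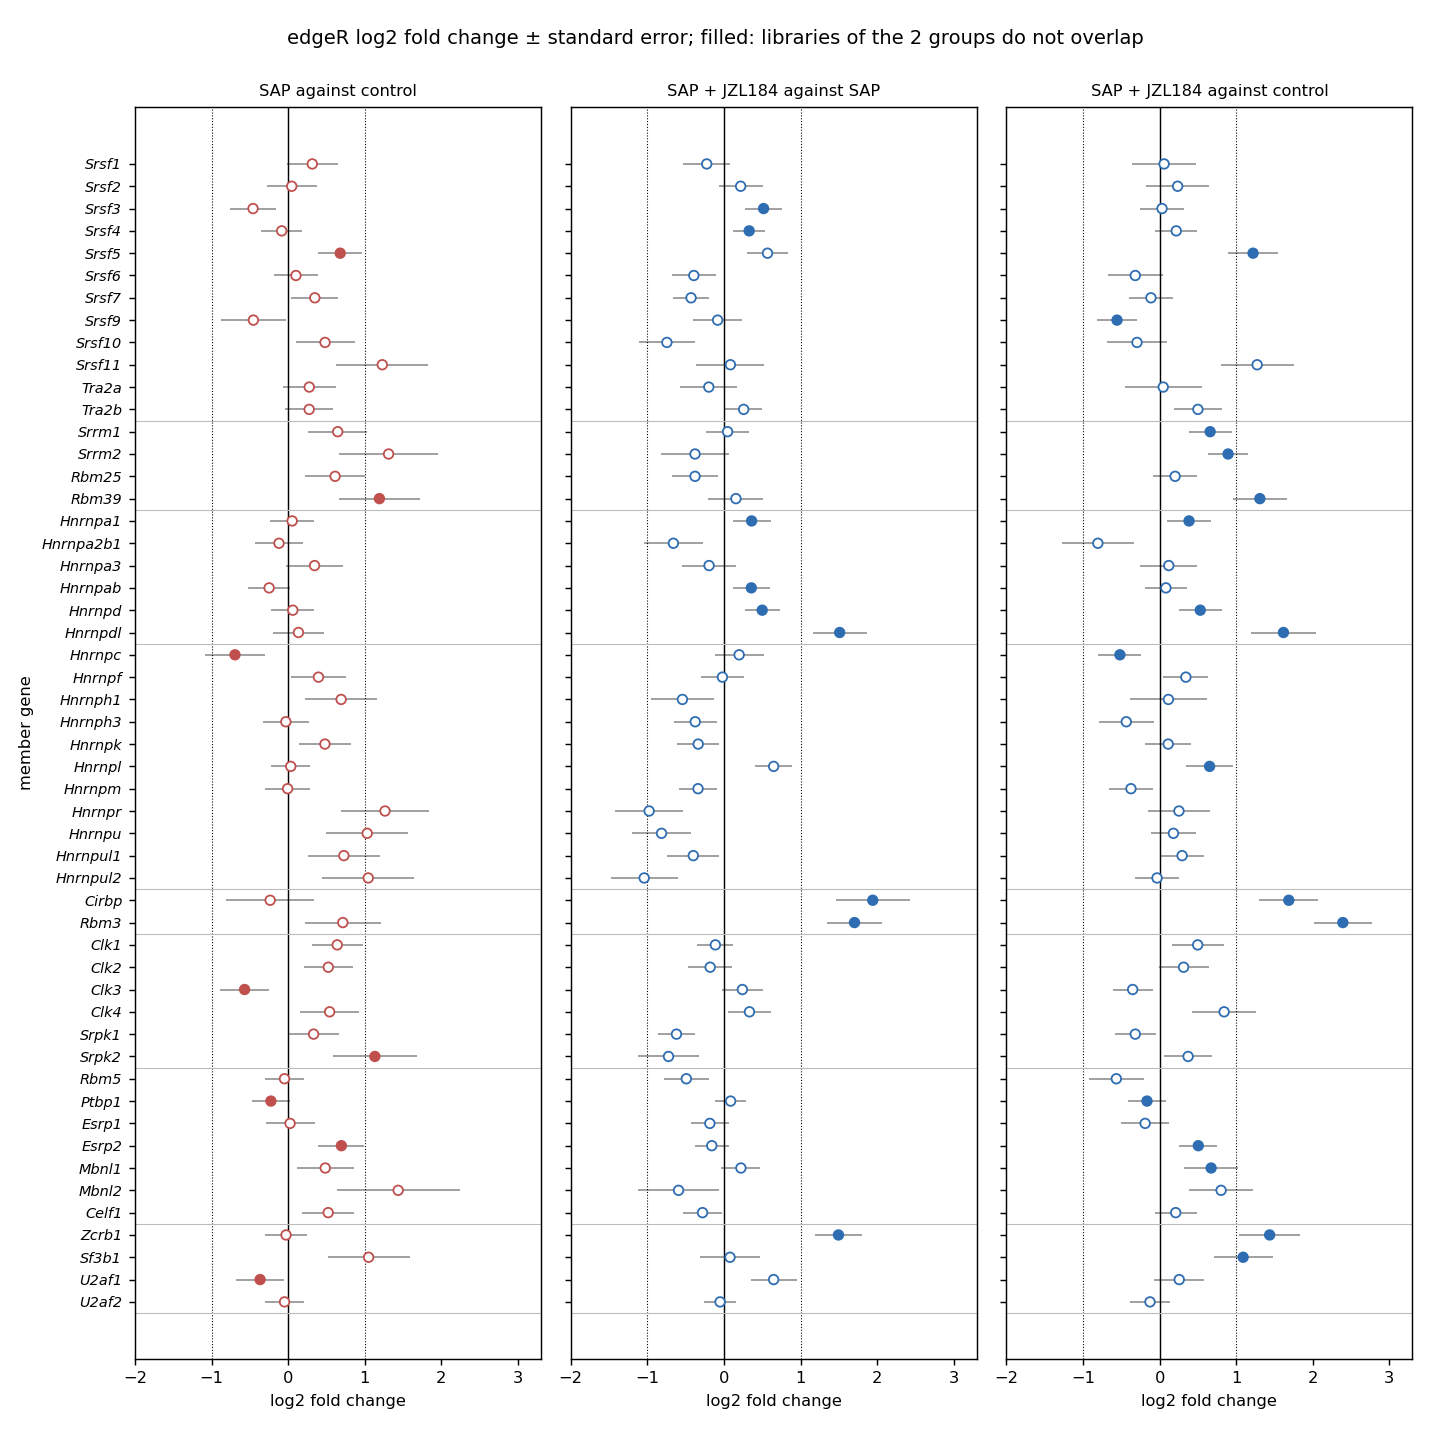
edgeR log2 fold change of each member (points) with its standard error (bars) in the 3 comparisons, members ordered by role and separated by grey lines, with dotted lines at a 2-fold change. Filled points mark members whose normalised counts do not overlap between the groups: 8 in SAP against control, 9 in JZL184 against SAP and 17 in JZL184 against control.

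The comparison of the SAP and control groups sets rats with pancreatitis against rats without it, and the injury cannot be told apart from the operation where the controls had none. The members with the largest log2 fold changes were Mbnl2 (1.44, standard error 0.80), Srrm2 (1.31, standard error 0.64) and Hnrnpr (1.26, standard error 0.58), and none was called (adjusted p = 0.461, 0.459 and 0.459 with edgeR; 0.347, 0.313 and 0.289 with DESeq2). Each was highest in SAP libraries 1 and 2. Mbnl2 (chromosome 15), a muscleblind regulator of developmental splicing, was at 6.34, 8.49, 1.45 and 1.47 FPKM in SAP libraries 1 to 4, at 0.92, 0.74 and 2.03 FPKM in control and at 3.22, 1.44, 3.01 and 2.55 FPKM in JZL184. SAP libraries 3 and 4 lay between the control libraries.

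Srrm2 (chromosome 10), the large SR-related scaffold of nuclear speckles, was at 15.0, 18.0, 4.43 and 3.84 FPKM in SAP libraries 1 to 4. In control it was at 3.20, 3.20 and 3.96 FPKM and in JZL184 at 6.86, 5.89, 8.54 and 6.07 FPKM. The JZL184 libraries lay above every control library and between the high and low SAP libraries. Hnrnpr (chromosome 5), an hnRNP with roles in transcription and splicing, was at 45.1, 59.2, 22.2 and 12.7 FPKM in SAP libraries 1 to 4. It was at 8.81, 10.2 and 15.7 FPKM in control and at 25.0, 7.84, 14.2 and 15.2 FPKM in JZL184. For Hnrnpr all 3 groups overlapped. With SAP libraries 3 and 4 alone, the log2 fold change against control was 0.14 for Srrm2, 0.40 for Hnrnpr and -0.01 for Mbnl2. The exact permutation p in SAP against control (n = 4 and 2, smallest possible 0.0667) was 0.2 for Srrm2, 0.2 for Hnrnpr and 0.267 for Mbnl2.

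Single markers of leukocytes differed between the same SAP libraries, and not all in the same direction. Ptprc, which marks leukocytes in general, was at 14.4 and 32.0 FPKM in SAP libraries 1 and 2, at 7.02 and 4.86 FPKM in SAP libraries 3 and 4, at 24.2 FPKM in JZL184 library 1 and at 2.55 to 7.84 FPKM in the other libraries. The 7 markers listed summed to 1066 to 1287 FPKM in control, 747 to 2257 in SAP and 260 to 1256 in JZL184, most of it from Lyz2. DESeq2 called 3 of them, the neutrophil genes S100a8, S100a9 and Csf3r, higher both in SAP and in JZL184 than in control, and edgeR called 0. Of all genes, DESeq2 called 1.23% in SAP against control and 10.8% in JZL184 against control. The 3 genes were near the floor in control, at 0 to 0.63 FPKM for S100a8, 0.36 to 0.72 for S100a9 and 0.09 to 0.15 for Csf3r. S100a8 and S100a9 did not follow the split of the SAP libraries, with 39.5, 4.96, 29.5 and 3.56 FPKM for S100a8 in SAP libraries 1 to 4. Cd79a and Cd3e had the order opposite to Ptprc. In SAP libraries 1 to 4, Cd79a was at 5.94, 15.8, 44.9 and 50.0 FPKM and Cd3e at 4.69, 9.92, 12.1 and 15.0 FPKM. The part of leukocyte content in the members' values was not tested.

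Srsf5 did not show this split. Srsf5 (chromosome 6), an SR protein that binds exonic enhancers, was at 114, 126, 97.7 and 124 FPKM in SAP libraries 1 to 4, at 58.1, 56.4 and 71.8 FPKM in control and at 137, 106, 197 and 179 FPKM in JZL184. Every SAP and JZL184 library lay above every control library, and SAP and JZL184 overlapped. Against control, Srsf5 was at 0.68 ± 0.29 on the log2 scale in SAP (SE, edgeR adjusted p = 0.459), 0.73 there with SAP libraries 3 and 4 alone, and 1.22 ± 0.33 in JZL184 (SE, adjusted p = 0.0775 with edgeR's quasi-likelihood test, 0.0189 with DESeq2).

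Rbm39 was, like Mbnl2, Srrm2 and Hnrnpr, highest in SAP libraries 1 and 2. Rbm39 (chromosome 3), an SR-related partner of the factor that recognises the 3′ splice site, was at 81.5, 89.1, 31.9 and 29.8 FPKM in SAP libraries 1 to 4. It was at 15.5, 15.0 and 29.4 FPKM in control and at 53.3, 40.5, 70.4 and 61.5 FPKM in JZL184. SAP libraries 3 and 4 lay just above control library 3, and the JZL184 libraries lay between the 2 pairs of SAP libraries. Against control, Rbm39 was at 1.19 ± 0.53 on the log2 scale in SAP (SE, edgeR adjusted p = 0.459), 0.42 there with SAP libraries 3 and 4 alone, and 1.31 ± 0.35 in JZL184 (SE, adjusted p = 0.0775 with edgeR's quasi-likelihood test, 0.0157 with DESeq2).

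**Figure D4:**
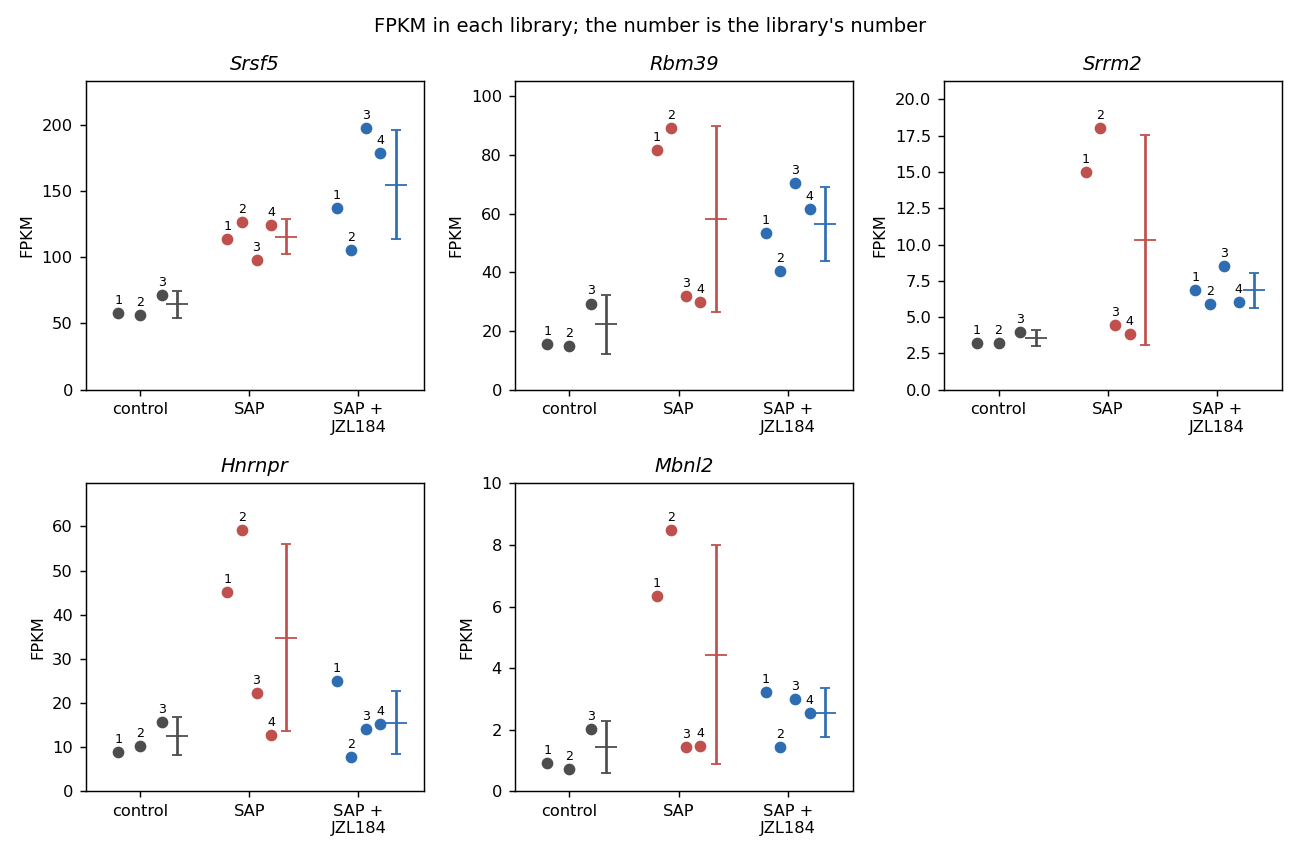
FPKM of Srsf5, Rbm39, Srrm2, Hnrnpr and Mbnl2 in each library (points, numbered), with the group mean and SD beside them (control libraries 1 and 2 averaged, n = 2, 4 and 4). SAP libraries 1 and 2 lie above libraries 3 and 4 for Rbm39, Srrm2, Hnrnpr and Mbnl2, and for Srsf5 all SAP libraries lie between 97.7 and 126 FPKM.

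In SAP against control, edgeR called 0% of 16029 genes and 0 of 52 members. An unadjusted p below 0.05 was reached by 9.09% of all genes and by 2 members (3.85%), Srsf5 and Esrp2, both higher. DESeq2 called 1.23% of all genes and 0 members. Without overlap, 4 members were higher (7.69%, against 11.3% of all genes): Srsf5, Rbm39, Srpk2 and Esrp2. Another 4 were lower (7.69%, against 11.9%): Hnrnpc, Clk3, Ptbp1 and U2af1. These shares were below the background.

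Between SAP and control the members had a median log2 fold change of 0.34 (37 of 52 above 0), beside 0.06 for all genes tested. It was 0.92 for the SR-related proteins, 0.53 for the kinases, 0.48 for the other regulators, 0.48 for the other hnRNPs and 0.27 for the SR proteins, and 0.06 and -0.04 for the hnRNPs of the A/B and D type and the spliceosome components. Among the kinases Srpk2 (1.13, standard error 0.55, adjusted p = 0.459 with edgeR) and Clk3 (-0.57, standard error 0.32, adjusted p = 0.461 with edgeR) lay at the ends. Without SAP libraries 1 and 2 the members' median was 0.11, and scaled to library size alone, which moved the median of all genes to 0.25, it was 0.55.

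Long transcripts were higher in SAP among the members as among all genes. With all genes split into 3 equal bins of effective transcript length (from the ratio of reads to FPKM), their median log2 fold change between SAP and control was -0.30, 0.07 and 0.49 from the shortest to the longest bin. For the members it was -0.14 (6 genes), 0.12 (26 genes) and 0.57 (20 genes). The members' median length was 4.01 kb and that of all genes 3.53 kb. With an offset that removes each library's trend on length, the members' median fell to 0.13, Srrm2 was at 0.59 and Mbnl2 at 1.06, while Hnrnpr, with 3.15 kb, stayed at 1.32. Across the members, Pearson's r of log2 length with the log2 fold change was 0.39 between SAP and control and -0.38 in JZL184 against SAP (52 genes from the same libraries, which share depth and RNA quality). The part of length in these values was not tested beyond this offset.

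**Figure D5:**
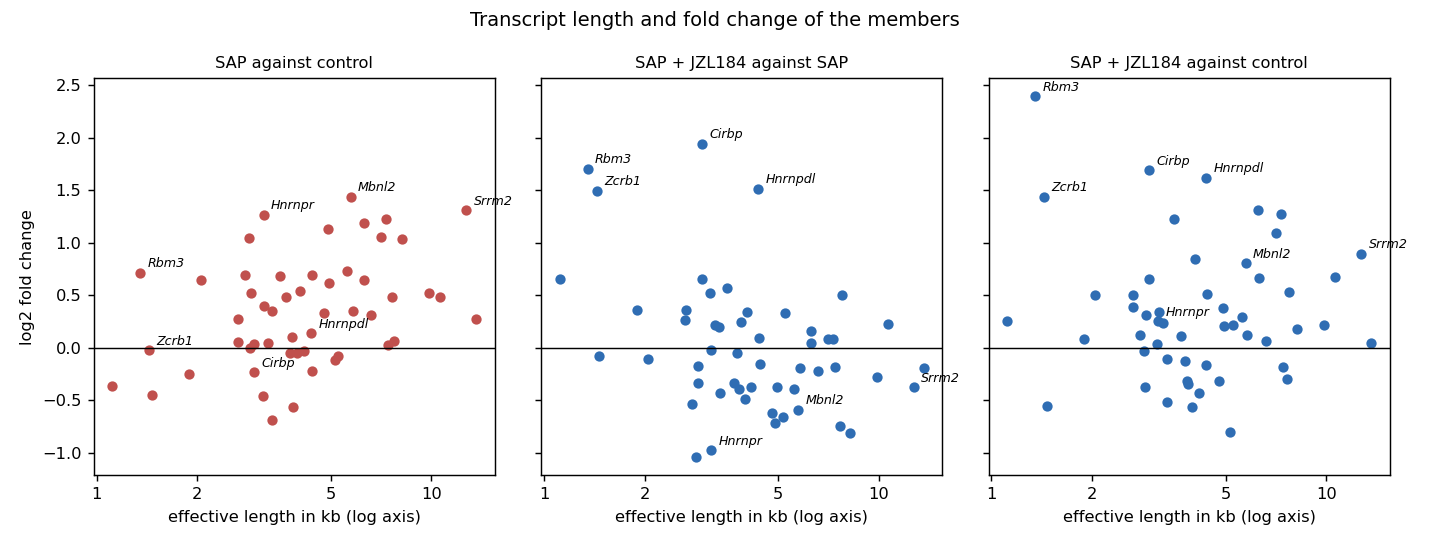
Effective transcript length in kb (log axis) against the edgeR log2 fold change of the 52 members (points) in the 3 comparisons. Points rise with length in SAP against control (r = 0.39) and fall in JZL184 against SAP (r = -0.38), while Rbm3, Zcrb1, Cirbp and Hnrnpdl lie above the other members in both comparisons of JZL184.

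The comparison of JZL184 with control joins the injury and the inhibitor, and it shares its libraries with the other comparisons. Rbm3 rose by 2.39 ± 0.38 on the log2 scale (SE, adjusted p = 0.0259 with edgeR's quasi-likelihood test, 1.95e-07 with DESeq2) from 137 ± 68.1 FPKM (SD, n = 2) to 725 ± 48.8 FPKM (SD, n = 4). This call was lost without JZL184 library 2 or without JZL184 library 4. In those fits edgeR called 25 of 15836 and 78 of 15827 genes, against 343 of 15916 in the main fit. The lost call thus went with fewer calls over all genes. Leaving out control sample 1 and 2 or control library 3 left control n = 1, where a call cannot be judged. When 1 library at a time was omitted, the log2 fold change lay between 1.99 and 2.93. Over all alternatives tried the adjusted p of Rbm3 ran from 1.93e-13 to 0.388. Cirbp was at 1.69 ± 0.38 (SE, adjusted p = 0.0617 with edgeR, 0.00245 with DESeq2), Hnrnpdl at 1.62 ± 0.43 (SE, adjusted p = 0.0756 with edgeR, 0.00647 with DESeq2) and Zcrb1 at 1.44 ± 0.40 (SE, adjusted p = 0.0824 with edgeR, 0.0153 with DESeq2). The exact permutation p on FPKM (n = 4 and 2) was 0.0667, the smallest possible, for Rbm3, Cirbp and Hnrnpdl, and 0.133 for Zcrb1. As these genes were picked from the same libraries as high in JZL184, these values add no support.

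In this comparison edgeR called 2.16% of 15916 genes and 1 of 52 members (1.92%), and DESeq2 called 10.8% of all genes and 6 members (11.5%), all higher: Rbm3, Cirbp, Hnrnpdl, Zcrb1, Srsf5 and Rbm39. Both shares were near the background. At an unadjusted p below 0.05 the shares were 26.3% of all genes and 19.2% of the members. These 10 members were higher, namely the 6 above and Srsf11, Srrm1, Srrm2 and Sf3b1. Groups did not overlap for 14 members that were higher (26.9%, against 18.9% of all genes) and for 3 that were lower (5.77%, against 19.3%), namely Srsf9, Hnrnpc and Ptbp1. The higher ones included Sf3b1, the U2 particle subunit at the branch site (log2 fold change 1.09, standard error 0.39, adjusted p = 0.128 with edgeR), and Esrp2 (0.51, standard error 0.25, adjusted p = 0.231 with edgeR). The median of the members was 0.23, beside 0.08 for all genes tested.

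JZL184 library 1 also weighed on this comparison. Without it, edgeR called 7 members in place of 1 (13.5%, against 12% of all genes in that fit): the 6 that DESeq2 called, which were higher, and Hnrnpa2b1, which was lower (-1.30, adjusted p = 0.0385 with edgeR). With control libraries 1 and 2 kept separate it called 8 (15.4%, against 18.1% of all genes), all higher: the 6 that DESeq2 called, Srsf11 and Sf3b1. These shares were near the background.

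The SAP and control groups gave other values for the same 4 genes. Between SAP and control the log2 difference was 0.71 ± 0.50 for Rbm3 (SE, adjusted p = 0.497 with edgeR), -0.23 ± 0.57 for Cirbp (SE, adjusted p = 0.835 with edgeR), 0.13 ± 0.33 for Hnrnpdl (SE, adjusted p = 0.836 with edgeR) and -0.03 ± 0.28 for Zcrb1 (SE, adjusted p = 0.961 with edgeR). The exact permutation p (n = 4 and 2) was 0.4, 0.867, 0.533 and 0.467 in the same order. The sign changed under some alternatives for Cirbp, Hnrnpdl and Zcrb1, and Rbm3 kept its sign when any library was left out (0.32 to 1.25).

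The remaining SR proteins were led by Srsf3, which spanned 107 to 178 FPKM over all libraries and, in normalised counts, was higher in every JZL184 library than in any SAP library (log2 difference 0.52 ± 0.24, SE, adjusted p = 0.239 with edgeR). Srsf11 was at 59.7, 46.3, 17.5 and 16.3 FPKM in SAP libraries 1 to 4, at 8.24, 8.04 and 18.0 FPKM in control and at 48.1, 14.2, 33.5 and 34.9 FPKM in JZL184. Its high libraries were SAP 1 and 2 and JZL184 1, 3 and 4, and all 3 groups overlapped. Srsf10, a splicing repressor when dephosphorylated, was at 19.2, 19.1, 11.2 and 7.55 FPKM in SAP, at 7.88 to 9.60 FPKM in control and at 13.7, 4.74, 5.93 and 5.90 FPKM in JZL184. JZL184 libraries 2 to 4 were thus below every control library and library 1 was above them. Srsf10 was at -0.74 ± 0.37 on the log2 scale in JZL184 against SAP (SE, adjusted p = 0.266 with edgeR).

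The kinases of the SR tails did not share 1 pattern. Clk1, whose own splicing responds to heat and to its activity, was at 47.3 to 73.1 FPKM in SAP, 23.0 to 45.5 FPKM in control and 35.4 to 68.2 FPKM in JZL184. In normalised counts SAP and control overlapped for Clk1 (log2 difference 0.64 ± 0.33, SE, adjusted p = 0.459 with edgeR). Clk3 had the opposite order, with 8.48 to 12.7 FPKM in SAP against 13.9 to 15.0 FPKM in control. Srpk2 was at 11.3, 15.3, 4.66 and 3.90 FPKM in SAP libraries 1 to 4, against 2.87 to 3.73 FPKM in control and 2.81 to 6.27 FPKM in JZL184, and so was high in SAP libraries 1 and 2. Srpk1 was at 11.1 to 21.9 FPKM in SAP and 8.74 to 12.2 FPKM in JZL184 (log2 difference -0.62 ± 0.24, SE, adjusted p = 0.187 with edgeR), and these ranges overlapped.

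Of the epithelial regulators, Esrp2 was at 5.92 to 10.3 FPKM in SAP, 4.46 to 4.76 FPKM in control and 5.73 to 7.64 FPKM in JZL184, so both injured groups lay above control. Esrp1 was at 7.85 to 13.0 FPKM in SAP, 7.26 to 10.3 FPKM in control and 5.26 to 10.9 FPKM in JZL184, and all groups overlapped. Over the same libraries the sum of epithelial markers was lower in SAP and JZL184 than in control, mostly through Fabp6 and the keratins. Vil1 was also lower in every JZL184 library than in any control library, while SAP and control overlapped for it. Cdh1 was higher in every SAP and JZL184 library than in any control library, and Slc10a2 overlapped between the groups. The part of epithelial content in the Esrp1 and Esrp2 levels was not tested. Sf3b1 was at 41.5, 42.6, 16.0 and 13.1 FPKM in SAP libraries 1 to 4, at 8.52 to 15.3 FPKM in control and at 27.7, 14.3, 37.6 and 25.5 FPKM in JZL184. U2af1, which reads the AG of the 3′ splice site, was at 157 to 241 FPKM in SAP, 217 to 237 FPKM in control and 215 to 351 FPKM in JZL184, and its partner U2af2 stayed within 37.5 to 61.6 FPKM in all libraries. The tract-binding repressor Ptbp1 lay between 17.7 and 23.2 FPKM in all libraries.

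Other genes of the splicing and stress pathways were read from lists beside the members. Of 27 core small nuclear ribonucleoprotein genes, edgeR and DESeq2 called 0 in any comparison, and at an unadjusted edgeR p below 0.05 there were 1 lower in SAP against control, 5 higher and 2 lower in JZL184 against SAP and 1 higher in JZL184 against control. These were 3.70%, 25.9% and 3.70% of the list, against 9.09%, 21.3% and 26.3% of all genes, so none stood far above the background. Their median on the log2 scale was -0.32 between SAP and control, 0.26 in JZL184 against SAP and -0.06 in JZL184 against control. Of 14 catalytic and exon junction genes, DESeq2 called 1 in JZL184 against SAP, where it called 6.98% of all genes. This was Casc3, lower (log2 fold change -1.89, standard error 0.68, adjusted p = 0.0474 with DESeq2 and 0.171 with edgeR). Casc3 encodes a subunit of the exon junction complex. Of 10 nonsense-mediated decay genes neither tool called any, and their medians were 0.23, 0.00 and 0.32 in the 3 comparisons. At an unadjusted edgeR p below 0.05, 1 was higher in JZL184 against SAP (10% of the list, against 21.3% of all genes). Of 35 other splicing regulators (Qki was not analysed here), DESeq2 called 2 in JZL184 against control, where it called 10.8% of all genes. Pnn, a nuclear speckle protein, was higher (1.45, adjusted p = 0.0325 with DESeq2) and Rbm10 was lower (-1.02, adjusted p = 0.0499 with DESeq2). With edgeR their adjusted p was 0.117 and 0.0894. At an unadjusted edgeR p below 0.05 the list had 1, 11 and 7 genes in the 3 comparisons. These were 2.86%, 31.4% and 20% of it, against 9.09%, 21.3% and 26.3% of all genes.

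Of 9 heat shock genes, edgeR called 0, and at its unadjusted p below 0.05 there were 0 in SAP against control, 1 higher and 3 lower in JZL184 against SAP and 1 higher and 4 lower in JZL184 against control (0%, 44.4% and 55.6% of the list, against 9.09%, 21.3% and 26.3% of all genes). Their median on the log2 scale was -0.05 between SAP and control, -0.67 in JZL184 against SAP and -0.65 in JZL184 against control. DESeq2 called Hsph1, a co-chaperone of the HSP70 family, lower in JZL184 against SAP (-1.71, adjusted p = 0.0388 with DESeq2, 0.151 with edgeR). It also called the mitochondrial chaperonin gene Hspe1 lower in JZL184 against control (-1.28, adjusted p = 0.0269 with DESeq2, 0.0885 with edgeR). Over all genes DESeq2 called 6.98% in the first of these comparisons and 10.8% in the second. Dnajb1, a heat shock gene of the HSP40 family, had 14.2 FPKM in JZL184 library 1 and 44.4, 35.8 and 54.8 FPKM in libraries 2 to 4, against 12.5 to 28.6 FPKM elsewhere. Library 1 was thus at the level of the other groups for Dnajb1, and it was the lowest JZL184 library for Cirbp, Hnrnpdl and Zcrb1. No source used here gives body temperature or RNA quality at collection, and their part in these values was not tested.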

How the data were processed

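RNA was measured in 11 ileum libraries. Per the study's methods, reads were trimmed, aligned to mRatBN7.2 with HISAT2 and counted per gene when uniquely aligned. The deposited count table holds these raw read counts, and the authors computed the deposited FPKM (2 decimals) from them. The authors' own fold changes were not used here. Counts of all genes were tested with edgeR 4.0.16 (R 4.3.3; TMM scaling, filterByExpr with a minimum count of 10, quasi-likelihood test). Calls needed a p of less than 0.05 after Benjamini-Hochberg adjustment over all genes tested and a change of over 2-fold either way. DESeq2 1.42.0 and limma-voom 3.58.1 with sample quality weights were alternatives. FPKM was used for levels, for exact two-sided permutation tests of the difference of means and, with the counts, for effective length. Fits were tested on simulated data. Control libraries 1 and 2 were summed for counts and averaged for FPKM. The labels do not say that libraries of a group are separate animals, so p-values cover only the spread between these libraries. Libraries held 26341299 to 33847135 reads on genes, and the members' means were at least 498 reads (Mbnl2), so counting error alone was small beside the spread between libraries.

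The members and lists were chosen with earlier results of these data known. By a fixed rule, values in every library were given for Hnrnpdl, Zcrb1 and Cirbp (named by the study) and for members called by edgeR or DESeq2. The rule added the 3 members with the largest log2 fold change in each comparison among those with a mean count of at least 100. Library values of Srsf10, Srsf11, Srpk2, Sf3b1, Hnrnpa2b1 and Rbm5 are also given, though the rule did not select these genes. Promoter windows were read from RefSeq (GRCr8), not from the build of the counts. Fixed alternatives covered scaling, filters, tools, transcript length, the replicate number as a block, separate control libraries, SAP libraries 3 and 4 alone and leaving out each library.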

Additional observations from a re-analysis of the deposited data

How the results depend on the processing

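Members called, with the share of all genes called in the same fit. In SAP against control, 0 were called under any alternative except DESeq2 with separate control libraries (2, Rbm39 and Hnrnpr; 8.46% of all genes). In JZL184 against SAP (0), DESeq2 called 4 (6.98%), limma-voom 4 (4.57%) and all 3 groups in 1 fit 2 (1.25%). Leaving out 1 library gave 0 to 4, the 4 without JZL184 library 1 (4.21%). In JZL184 against control (1; 2.16%), DESeq2 called 6 (10.8%), limma-voom 9 (8 higher and Hnrnpa2b1 lower; 18.3%), no filter on low counts 2 (3.93%), separate control libraries 8 (18.1%), and these with DESeq2 9 (18.9%). Leaving out 1 library gave 0 to 7, the 7 without JZL184 library 1 (12%). The cause was not tested.

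The members' median between SAP and control (0.34 on the log2 scale) was 0.55 by library size only, 0.13 with gene length offsets and 0.11 with SAP libraries 3 and 4 alone, and 0.14 to 0.54 when 1 library was left out. Members without overlap in JZL184 against SAP (9) were 5 by library size only and 5 on the deposited FPKM.

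Replicate numbers are shared between groups, and deviations of same-numbered libraries correlated at -0.43 to 0.12. With so few libraries, each centred on its group, this cannot show whether same-numbered libraries share a batch. With the replicate block, 6 members were called in JZL184 against control (9.65% of all genes), also 6 with gene length offsets added (7.55%), and the median in SAP against control was 0.55. The control libraries were kept separate in those fits, which alone gave 8 calls.

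For the named members these signs changed. In SAP against control, Zcrb1 (-0.03) was 0.15 by library size only, 0.39 with gene length offsets, 0.52 with the replicate block and these offsets, 0.0437 with separate control libraries (0.0353 with DESeq2) and 0.0491 with SAP libraries 3 and 4 alone, and -0.18 to 0.15 without 1 library. Hnrnpdl (0.13) was -0.17 with the replicate block and length offsets and -0.0728 to 0.29 without 1 library. Cirbp (-0.23) was 0.32 and Mbnl2 (1.44) -0.00709 with SAP libraries 3 and 4 alone, and Cirbp was -0.85 to 0.014 without 1 library. In JZL184 against SAP, Srrm2 (-0.38) was 0.00537 with limma-voom, 0.0068 with length offsets, 0.0708 with these and the replicate block, 0.77 with SAP libraries 3 and 4 alone, and -0.62 to 0.00413 without 1 library. Mbnl2 (-0.59) was 0.83 with SAP libraries 3 and 4 alone. Rbm39 (0.16) was -0.0232 by library size only and -0.0339 to 0.41 without 1 library. In JZL184 against control, Hnrnpr (0.25) was -0.0277 to 0.57 without 1 library. On log2(FPKM + 1) and on log2(FPKM + 0.1) the exact permutation p of Rbm39 in JZL184 against SAP (n = 4 and 4) was 0.8286, with the opposite sign. A filter at a mean of 1 FPKM left the 9 named members as they were.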
